A study of Mus musculus with 76 samples.

Results

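The genes described here are 10 transcription factors of the T cell lineage, taken by symbol from a table that lists 55487 genes and joined to the other tables by gene identifier. They are Tcf7, Lef1, Bcl11b, Satb1, Tox, Gata3, Zbtb7b, Runx1, Runx3 and Id3. The study measured RNA by sequencing in mice that carry the SOD1-G93A transgene, a mutant human SOD1 used as a model of amyotrophic lateral sclerosis, and in wild-type (WT) mice. Libraries labelled Treg (regulatory T cells) and CD4 were sorted from the thymus at day 30 and day 120, with 3 libraries of each genotype per population and day except 2 for WT CD4 cells at day 30. Unsorted whole thymus and inguinal lymph node were taken at day 120, with 3 libraries of each genotype. Cultures of cells labelled Treg, under titles that read Tregdiff, were sampled without activation (T0) and at T2 and T20 of activation. There were 3 libraries of each genotype at each time, and the labels give no unit for these times. Sorts labelled cTEC and mTEC (cortical and medullary thymic epithelium) are used only as a background. Every library, WT included, carries SOD1-G93A as its strain, and the column names of WT sorts at day 30 also read SOD1. The genotype was therefore taken from the genotype label, and it was not checked against the transgene here. No label says that replicates came from separate animals, so the p-values measure the spread between these libraries, which may be technical.

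T cells develop in the thymus from progenitors that still carry other fates. Tcf7 (TCF-1) and its relative Lef1 bind the same DNA motif and act early, Gata3 and Bcl11b follow at commitment, and Runx1 works with them as a partner of Cbfb. Satb1 organises chromatin in thymocytes, and Tox is needed for CD4 lineage development. After positive selection, Zbtb7b (ThPOK) holds cells in the CD4 lineage and Runx3 in the CD8 lineage, each repressing the other. Id3 inhibits the E proteins, which set the selection checkpoints.

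In mm10 coordinates, with GENCODE vM21 gene models, Tcf7 lies at chr11:52252371-52283014 (minus strand), Lef1 at chr3:131110471-131224356 (plus) and Bcl11b at chr12:107910403-108003602 (minus). Satb1 lies at chr17:51736187-51833290 (minus), Tox at chr4:6686353-6991557 (minus) and Gata3 at chr2:9857078-9890034 (minus). Zbtb7b lies at chr3:89377644-89394776 (minus), Runx1 at chr16:92601466-92826149 (minus), Runx3 at chr4:135120652-135177990 (plus) and Id3 at chr4:136143497-136145755 (plus). All are protein-coding. Exons of Lef1 share 1208 bases with Gm43352 on the opposite strand, and those of Tox share 260 with Gm11802, Gata3 155 with Gm13256, Satb1 128 with Gm6934, Zbtb7b 116 with Gm15417 and Runx1 106 with Gm26626. On the same strand, exons of Satb1 share 156 bases with Gm36931 and those of Gata3 share 77 with 9230102O04Rik, which strand could not separate. Whether the counting used strand is not given in the sources used here. Reads of all these partners therefore cannot be told apart from reads of the factors.

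RefSeq (GRCm38.p6, the same assembly as mm10) gave promoter windows of 250 bases before to 50 after 20 start sites of 9 of the 10 genes, and none for Tox. Because several of the genes fell together in culture and Runx3 rose, the windows were searched on both strands for 4 short motifs, which do not overlap one another. The core letters that TCF-1 and LEF-1 bind, both lower in culture after activation, are CTTTGA. RUNX proteins, among them the rising Runx3 and its relative Runx1, are known to bind a core spelled TGTGGT. For Gata3 and other proteins with the same kind of zinc finger the letters searched were AGATAA. E proteins, which Id3 inhibits, bind an E-box, searched as CAGCTG. The 3 promoters with a TCF/LEF match, or with more than 1 RUNX match, before the start site are printed without their transcribed bases, 5′ to 3′ on the strand of the gene, with the matches in capitals. The Lef1 start lies within the gene (window chr3:131156044-131156293, plus strand), the Runx3 window is chr4:135120395-135120644 (plus) and the Bcl11b window is chr12:108003415-108003664 (minus).
Lef1: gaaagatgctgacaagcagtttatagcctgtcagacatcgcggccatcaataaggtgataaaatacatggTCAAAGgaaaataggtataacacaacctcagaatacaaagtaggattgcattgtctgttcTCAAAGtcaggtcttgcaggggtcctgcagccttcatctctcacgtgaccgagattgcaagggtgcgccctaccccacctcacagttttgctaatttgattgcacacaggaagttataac
Runx3: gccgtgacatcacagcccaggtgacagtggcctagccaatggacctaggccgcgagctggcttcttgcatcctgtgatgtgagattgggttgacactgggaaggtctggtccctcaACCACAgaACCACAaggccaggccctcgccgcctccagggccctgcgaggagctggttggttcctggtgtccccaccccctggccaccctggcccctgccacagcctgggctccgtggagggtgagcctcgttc
Bcl11b: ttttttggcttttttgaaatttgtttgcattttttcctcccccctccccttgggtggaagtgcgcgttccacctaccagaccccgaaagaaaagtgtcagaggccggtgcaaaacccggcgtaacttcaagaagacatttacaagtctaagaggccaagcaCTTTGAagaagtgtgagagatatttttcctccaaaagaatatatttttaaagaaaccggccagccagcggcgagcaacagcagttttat
Counted from the start site, with negative positions before it, Lef1 held the TCF/LEF letters at -180 and -120, Bcl11b held them at -89, and Runx3 held the RUNX letters at -134 and -126. The other start sites of Lef1 held no TCF/LEF letters, and the other start of Runx3 held no RUNX letters. Runx1 held RUNX letters at 29 and 37 and Zbtb7b at -89. An E-box stood at -159 in Tcf7, at -1 in Gata3, at -205 at another start of Lef1, and at -64 and 11 in Satb1, and a GATA core at 18 in Lef1. Id3 held none of the 4. Of 32851 RefSeq promoter windows of this length, 16% held the TCF/LEF letters, 16.8% the RUNX letters, 11.2% the GATA letters and 16.3% the E-box, so each of these matches is common. A match is a description of the letters only.

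The total count per library ranged from 837050 to 34151147 in the sorted Treg and CD4 libraries. It ranged from 171619 to 19699330 in the cultures, and from 63887 to 894958 in the lymph nodes. Libraries labelled CD4 at day 120 held 837050 to 2239878 counts. Every Treg library at day 120 (at least 3241250) and every CD4 library at day 30 (at least 2346044) held more. Depth therefore cannot be told apart from cell type at day 120, or from age in CD4. Levels are given as CPM, counts divided by the library size and scaled with TMM factors within each set of libraries. Levels of the sorted T cell, epithelial, culture and lymph node sets were therefore scaled separately. Levels of different genes are compared only per kb of exon. The labels were set against the defining genes of their cells, Cd4 and Cd8a (the coreceptors), Foxp3 (the factor that defines Treg) and Zbtb7b. Libraries labelled CD4 held more Cd8a than Cd4 per kb in their medians at both days. The Cd4 level ranged from 39.1 to 54.8 CPM per kb at day 30 and from 11.3 to 50.8 at day 120. The Cd8a level ranged from 59.7 to 111 at day 30 and from 40.6 to 100.4 at day 120, where it overlapped that of Cd4. In libraries labelled Treg, Cd4 ranged from 40.0 to 52.7 CPM per kb and Cd8a from 32.4 to 48.2 at day 30. At day 120 those libraries held 25.2 to 31.5 of Cd4 and 34.5 to 48.6 of Cd8a, so Cd8a lay above Cd4 there too. Zbtb7b, which CD4 lineage cells are known to express, was at most 0.842 CPM per kb in libraries labelled CD4. It was at most 1.31 in those labelled Treg, against 14.7 to 29.9 in the T0 cultures. Foxp3 ranged from 1.69 to 4.97 CPM per kb in libraries labelled CD4 and from 7.43 to 53.9 in those labelled Treg, with no overlap. The T0 cultures, labelled Treg under titles that read Tregdiff, held 0.778 to 6.94 CPM per kb of Foxp3. The T2 and T20 cultures held 8.62 to 71.0. Results are therefore given for "libraries labelled CD4" and for Treg and T0 as labelled. None of them can be repeated without these libraries, since Zbtb7b was low in every library labelled CD4 or Treg and Foxp3 in every T0 library.

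**Figure D1:**
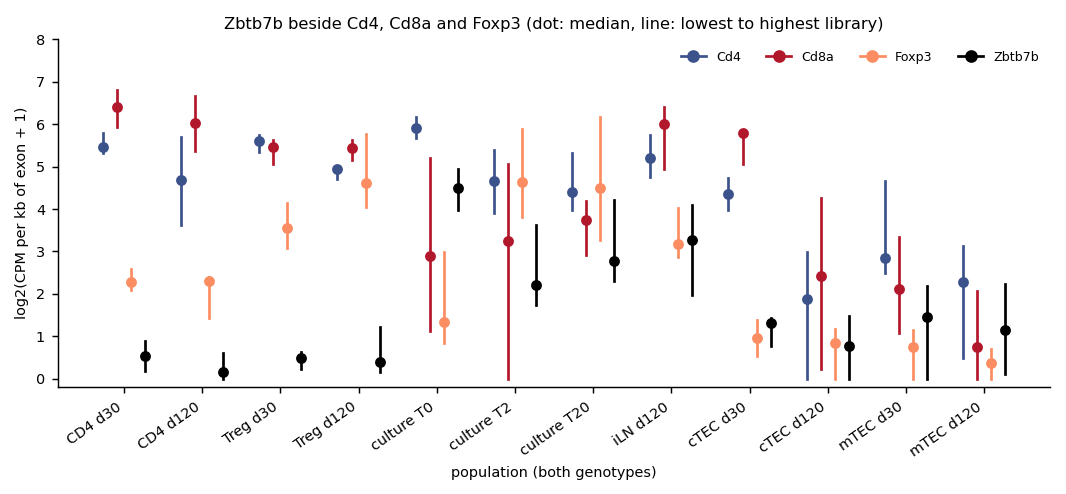
Level of Cd4, Cd8a, Foxp3 and Zbtb7b in each population with both genotypes pooled, on a vertical axis of log2(CPM per kb of exon + 1). Dots are medians and lines run from the lowest to the highest library. Zbtb7b lies near 0 in all sorted thymic T cell libraries and highest at T0. Cd8a lies above Cd4 in the medians of the libraries labelled CD4 and of Treg at day 120. Sorted T cell, epithelial, culture and lymph node (iLN) libraries were scaled separately.

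Per kb of exon, Tcf7 was the highest of the 10 in all 4 sorted T cell populations, with all its libraries above those of the next gene. Its median was 426 CPM per kb in CD4 at day 30, 326 in CD4 at day 120, 554 in Treg at day 30 and 488 in Treg at day 120. Id3, Lef1, Satb1 and Bcl11b had medians of 16.03 to 67.8 CPM per kb over the 4 populations, and their ranges mostly overlapped that of the next gene in order. In Treg at day 30, for example, the order was Bcl11b (47.4), Id3 (46.5), Lef1 (44.9) and Satb1 (43.6), and each of the first 3 overlapped the gene after it. Zbtb7b was last in all 4, with every library below the lowest library of the gene above it. Its raw count was 0 to 83 per library, and it was 0 in CD4 d120 SOD1 1, WT 2 and WT 3, where 3 counts, the limit that a count of 0 allows, would be 1.99, 1.37 and 3.31 CPM. In unsorted thymus, on the deposited TPM scale, Tcf7 (median 1988 TPM) and Satb1 (1393) led, each above the next gene in all libraries, and Zbtb7b was at 23.7 to 47.8 TPM. In bulk RNA, fewer cells of a type and less RNA per cell cannot be told apart.

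**Figure D2:**
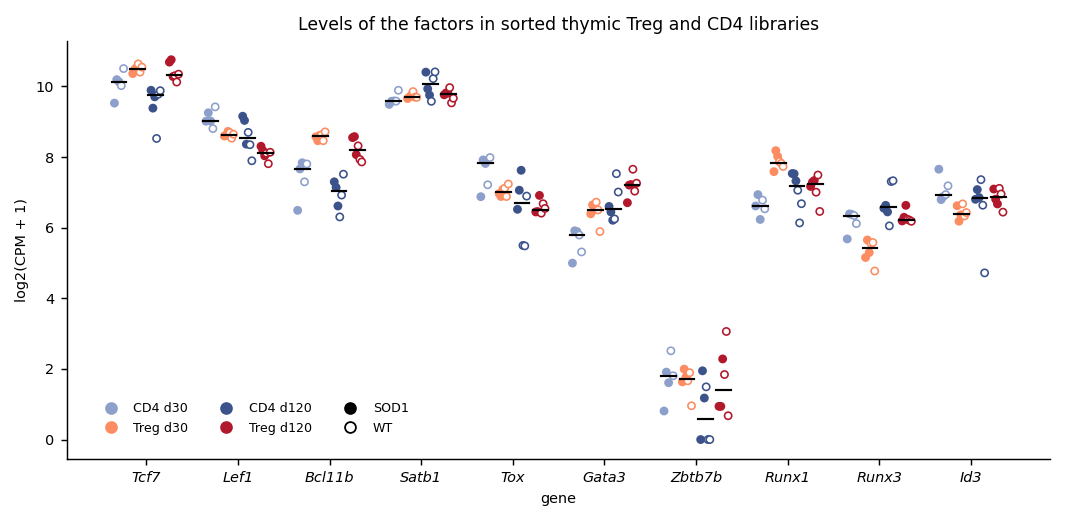
Level of each factor in every sorted Treg and CD4 library, as log2(CPM + 1) on the vertical axis, by gene on the horizontal axis. Filled points are SOD1, open points WT, and bars are medians. Bcl11b is higher in all Treg than in all CD4 libraries at both days, while Zbtb7b stays at the bottom of the axis.

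The first comparison set libraries labelled Treg against those labelled CD4 at each day, over both genotypes. At day 30, Bcl11b, Gata3 and Runx1 were higher in Treg and Runx3 was lower, 4 of 10 genes at an adjusted p under 0.05 (edgeR quasi-likelihood test, Benjamini-Hochberg), where 4.67% of the 15725 genes tested passed. With the replicate number as a block, Bcl11b and Runx1 passed and Gata3 and Runx3 did not. At day 120, Tcf7 and Bcl11b were higher and Lef1 was lower, 3 of 10, where 17.6% of all genes passed. Bcl11b was the only one called at both days. The median log2 difference over the 10 genes was -0.08 at day 30, against 0.01 for all genes tested, and 0.10 against 0.14 at day 120. All 10 passed the filter on low counts in this fit.

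Bcl11b, which closes alternative fates at commitment and is kept in mature T cells, was at 88.9, 202 and 228 CPM in the SOD1 and 156 and 222 CPM in the WT CD4 libraries at day 30. In Treg at day 30 it ranged from 352 to 419 CPM with a median of 385. No Treg library overlapped a CD4 library, as held for 13.5% of all genes at day 30. The difference was 1.08 ± 0.24 on the log2 scale (SE; 2.11-fold, adjusted p = 0.00921), and without CD4 d30 WT 2 the adjusted p rose to 0.118. At day 120, CD4 ranged from 78.0 to 182 CPM (median 130) and Treg from 231 to 381 (median 292), again apart, as held for 5.81% of genes. Here the difference was 1.22 ± 0.23 (2.34-fold, adjusted p = 0.000774), and it passed with each of the 12 libraries left out in turn.

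Tcf7, the TCF-1 factor that starts the T cell program, ranged from 736 to 1452 CPM in CD4 and from 1316 to 1591 in Treg at day 30, and these ranges overlapped. Its difference at day 30 was 0.37 ± 0.21 and did not pass (adjusted p = 0.455). At day 120, CD4 ranged from 368 to 948 CPM (median 856) and Treg from 1114 to 1727 (median 1281), with no overlap. The day 120 difference was 0.83 ± 0.20 (1.78-fold, adjusted p = 0.00548) and passed with each library left out. Lef1, its relative, went the other way. It ranged from 446 to 684 CPM in CD4 and from 369 to 422 in Treg at day 30, and all Treg libraries lay below all CD4 libraries, but the difference of -0.49 ± 0.18 did not pass (adjusted p = 0.139). At day 120 CD4 ranged from 237 to 569 CPM and Treg from 223 to 315, overlapping, with a difference of -0.52 ± 0.17 (adjusted p = 0.0353). That call was lost with no filter on low counts (adjusted p = 0.184), with the replicate block (0.0529) and in 6 of 12 fits with 1 library left out (up to 0.0855). The latter were the fits without CD4 d120 SOD1 1, SOD1 2 or WT 1, or without Treg d120 SOD1 2, SOD1 3 or WT 2.

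Runx1, the RUNX factor of early thymocytes, was at 96.9, 121 and 74.2 CPM in SOD1 and 109 and 91.6 CPM in WT CD4 libraries at day 30. The Treg libraries ranged from 191 to 289 CPM (median 229), all above them. The difference was 1.24 ± 0.21 (2.37-fold, adjusted p = 0.000538), and it passed with each of 11 libraries left out. At day 120 the ranges overlapped almost wholly, at 69.2 to 184 CPM in CD4 and 87.0 to 179 in Treg, with a difference of 0.09 ± 0.19 (adjusted p = 0.789). The change of the Treg minus CD4 difference between the days was tested directly and was -1.15 ± 0.28 (adjusted p = 0.0489), the only one of the 10 to pass, where 1.03% of all genes passed. With the replicate number as a block it did not pass (adjusted p = 0.142), nor with no filter on low counts (0.0914). Adjusted p for it ranged from 0.00146 to 0.152 over the other settings, and 17 of 23 fits with 1 library left out lost the call. The median of all genes in that test was 0.14, and 0.01 with DESeq2.

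Gata3, which also drives helper fates, and Runx3, the CD8 lineage factor, moved in opposite directions at day 30. Gata3 was at 30.9, 59.2 and 58.2 CPM in SOD1 CD4, 54.3 and 38.7 in WT CD4, and 58.3 to 105 (median 89.6) in Treg, so 1 Treg library lay within the CD4 range. Its difference was 0.86 ± 0.24 (adjusted p = 0.0441). Runx3 was at 50.3, 82.9 and 82.0 CPM in SOD1 CD4, 80.2 and 68.3 in WT CD4, and 26.3 to 49.2 in Treg, with no overlap and a difference of -0.86 ± 0.23 (adjusted p = 0.0321). With the replicate block neither passed (adjusted p = 0.144 for Gata3 and 0.0539 for Runx3). Each call was lost in 8 of 11 fits with 1 library left out, with adjusted p up to 0.222 for Gata3 and 0.189 for Runx3. The Gata3 call stayed without CD4 d30 SOD1 2, CD4 d30 SOD1 3 or Treg d30 WT 3, and the Runx3 call without CD4 d30 SOD1 1, Treg d30 SOD1 2 or Treg d30 WT 1. At day 120 neither passed (Gata3 0.48 ± 0.23, Runx3 -0.48 ± 0.22). Id3 at day 30 was lower in all Treg libraries (71.6 to 101 CPM) than in all CD4 libraries (110.0 to 201), with -0.68 ± 0.29 and an adjusted p of 0.235. Tox (-0.60 ± 0.26 at day 30), Satb1 (0.08 ± 0.16) and Zbtb7b (-0.23 ± 0.77) did not pass at day 30, nor did the same genes at day 120.

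Other genes of the pathway were taken from lists of related genes. Of 25 partner factors, which include E proteins, Ikaros factors, corepressors and Cbfb, 3 were higher and 1 was lower in Treg at day 30, and 5 and 4 at day 120 (medians 0.00 and 0.18, against 0.01 and 0.14 over all genes). Patz1, a zinc finger partner, was higher by 1.85 ± 0.25 at day 30 and 1.97 ± 0.23 at day 120, and Myb, a factor of thymocyte growth and survival, by 1.06 and 1.13. Id2, the relative of Id3, was lower at day 120 (-1.06 ± 0.20), as was Zeb1 (-0.99 ± 0.20). Of 9 tested progenitor factors, 1 was higher and 3 were lower at day 30 (median -1.24), among them Spi1 (PU.1, -1.79 ± 0.34) and Hhex (-1.69 ± 0.27). At day 120, 1 of the 9 was higher and 1 lower, with a median of 0.18 against 0.14 over all genes. Of 14 T cell identity genes, which encode the receptor complex and its signalling proteins, 2 were higher and 2 lower at day 30 (median 0.02), and 4 and 2 at day 120 (median -0.06), where Cd3e was higher by 1.04 ± 0.22 and Cd28 lower (-1.09 ± 0.18).

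The 8 genes of the CD4 and CD8 lineages were Cd4, Cd40lg, Cd8a, Cd8b1, Eomes, Tbx21, Prf1 and Gzmb. None was higher in Treg, 3 were lower at day 30 (median -0.97) and 6 at day 120 (median -2.0). Cd4 ranged from 158 to 221 CPM in CD4 and 161 to 213 in Treg at day 30. At day 120 it ranged from 45.3 to 205 and from 102 to 127. The lists share genes, since Eomes is also an NK cell marker and Cd8a and Cd8b1 are also double-positive markers below. Eomes, a T-box factor of CD8 and NK cells, had the largest difference of these 8, with -5.68 ± 0.66 at day 30 and -6.25 ± 0.64 at day 120. Cd8a was lower at both days (-0.97 ± 0.20 and -0.63 ± 0.19). Of 8 naive T cell genes, 3 were lower at each day (medians -0.86 and -0.52), among them Klf2, the factor of thymic egress (-1.5 ± 0.21 and -0.60 ± 0.20).

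Markers of other cells moved with these differences. The 4 NK cell markers summed to 241 to 382 CPM in CD4 and 72.2 to 89.6 in Treg at day 30, and to 198 to 592 and 62.8 to 140 at day 120, and all 4 were lower in Treg at both days. The 8 markers of double-positive thymocytes summed to 818 to 1374 CPM in CD4 and 2151 to 2795 in Treg at day 30, and to 421 to 836 and 772 to 1117 at day 120. These markers were split, with 3 higher and 1 lower in Treg at day 30, and 3 higher and 2 lower at day 120. Their part in the differences of the 10 factors was not tested. The 6 epithelial markers summed to 66.6 to 113 CPM in CD4 and 91.4 to 193 in Treg at day 30, and to 35.1 to 109 and 95.4 to 154 at day 120. At day 120 the 6 B cell markers summed to 2.20 to 262 CPM in CD4 and 153 to 410 in Treg, and the 6 myeloid markers to 32.5 to 569 and 181 to 435. At that day 2 of 5 tested epithelial, 2 of 6 B cell and 1 of 6 myeloid markers were higher in Treg, and their part was not tested either. Foxn1 and Psmb11, both among the epithelial markers, and all 4 fibroblast markers were at 0 in every CD4 library at day 120. Those libraries held fewer counts in all than any Treg library of that day.

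**Figure D3:**
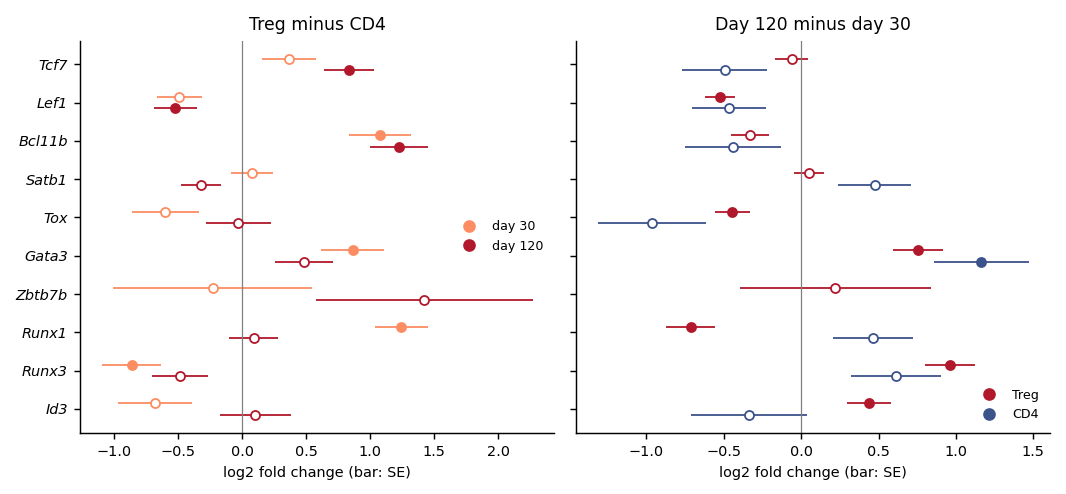
Log2 fold change (dot) and its SE (bar) for each factor, for Treg minus CD4 at day 30 and day 120 (left) and for day 120 minus day 30 in Treg and in CD4 (right). Filled dots have an adjusted p under 0.05. Bcl11b is filled at both days on the left, and Runx1 only at day 30, while 6 Treg dots and 1 CD4 dot are filled on the right.

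The next comparison set day 120 against day 30 within each population. All day 30 columns carry one kind of library code and all day 120 columns another, so age and any difference between those sets of libraries cannot be told apart. In Treg, 6 of 10 factors passed, Gata3, Runx3 and Id3 higher at day 120 and Lef1, Tox and Runx1 lower, where 29.9% of the 14824 genes tested passed. In libraries labelled CD4, Gata3 was the only one of 9 tested to pass (higher), where 10.6% of 12479 genes passed, and Zbtb7b did not reach the filter on counts. The median over the 10 factors was -0.01 in Treg, and it was -0.33 over the 9 in CD4, against 0.01 and -0.02 over all genes.

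In Treg, Runx3 rose from 26.3 to 49.2 CPM (median 42.1) at day 30 to 71.5 to 98.1 (median 73.6) at day 120, a difference of 0.96 ± 0.16 (1.95-fold, adjusted p = 0.000929). Runx1 fell by 0.71 ± 0.16 on the log2 scale (adjusted p = 0.00492), from 191 to 289 CPM at day 30 to 87.0 to 179 at day 120. Lef1 fell by 0.53 ± 0.09 (adjusted p = 0.00137), from 369 to 422 CPM to 223 to 315. For these 3 genes no library of one day overlapped the other day, as held for 17.8% of all genes in Treg. Gata3 rose by 0.75 ± 0.16 (adjusted p = 0.00397), from 58.3 to 105 CPM to 103 to 200, with a small overlap. Tox, a factor of CD4 lineage development, fell by 0.44 ± 0.12 (adjusted p = 0.0118). These 5 calls passed with each of 12 libraries left out. Id3 rose by 0.44 ± 0.14 (adjusted p = 0.0361), but 8 of the 12 fits lost that call, with adjusted p up to 0.113. It stayed without Treg d30 SOD1 1, d30 WT 1, d120 SOD1 3 or d120 WT 3. Bcl11b had a difference of -0.33 and did not pass (adjusted p = 0.0565), but 8 of 18 alternative settings called it, DESeq2 among them (0.00928). Tcf7 (-0.06 ± 0.11) and Satb1 (0.05 ± 0.10) had the smallest differences.

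In libraries labelled CD4, Gata3 was at 30.9, 59.2 and 58.2 CPM (SOD1) and 54.3 and 38.7 CPM (WT) at day 30 and ranged from 73.0 to 184 at day 120, with no overlap, as held for 12.6% of genes. The difference was 1.16 ± 0.31 (2.24-fold, adjusted p = 0.03). It was lost in 7 of 11 fits, those without any 1 of the 5 day 30 libraries and those without d120 SOD1 1 or SOD1 2, with adjusted p from 0.00998 to 0.187 over all 11, and with no filter on low counts (0.0946). Runx1 was at 74.2 to 121 CPM at day 30 and 69.2 to 184 at day 120 (0.46 ± 0.26), and Tox at 117 to 252 and 43.7 to 196 (-0.96 ± 0.35, adjusted p = 0.0911). Tox passed with the replicate number as a block (adjusted p = 0.0476), and in 4 of 17 alternative settings in all. Runx3 had a difference of 0.61 ± 0.29 (adjusted p = 0.187).

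Among the partner factors in Treg, 7 of 25 rose and 8 fell with age (median 0.14, against 0.01 over all genes). Runx2, the third RUNX factor, rose by 1.61 ± 0.14 and Fli1, an ETS factor, by 1.04 ± 0.13, while Ets1 fell by 0.64 ± 0.12 and Hdac2, a histone deacetylase, by 0.80 ± 0.12. Of 8 naive T cell genes 5 rose and 1 fell (median 0.63). Foxo1, which drives genes of quiescence and homing, rose by 1.70 ± 0.13 and S1pr1, the egress receptor, by 1.93 ± 0.32. Of 14 identity genes 4 rose and 5 fell (median 0.12), and Themis, a selection protein of double-positive thymocytes, fell by 1.59 ± 0.15. In CD4, 3 of 25 partner factors rose and 4 fell (median 0.02), among them Zeb1 (2.18 ± 0.28) and Cbfb, the RUNX partner (-1.48 ± 0.27). The double-positive sums given above were lower at day 120 than at day 30 in every Treg library, and 4 of the 8 markers fell in Treg and 2 in CD4. B cell markers in Treg summed to 33.4 to 87.4 CPM at day 30 and 153 to 410 at day 120. Their part in the age differences was not tested.

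The 10 factors differed most in the cultures. The design text says that the same Treg cells were activated for different lengths of time. From T0 to T2, 8 of 10 factors fell and Runx3 rose, where 58.1% of the 11787 genes tested passed and 34.3% passed as lower. From T0 to T20, 9 fell and Runx3 rose, where 58.2% passed and 34.1% passed as lower. Both comparisons share the T0 libraries. Between T20 and T2 no factor passed, and neither did any other gene (edgeR, 457 genes at an unadjusted p under 0.05, and 3 genes with DESeq2). The median log2 difference over the 10 factors was -1.98 at T2 and -1.74 at T20, against -0.24 and -0.25 over all genes. At T2, 7 factors (Tcf7, Lef1, Bcl11b, Satb1, Zbtb7b, Runx3 and Id3) had no library within the T0 range, as held for 27.6% of genes, and at T20 Tox and Runx1 took the place of Zbtb7b and Id3, where it held for 34.5%.

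Tcf7 and Lef1, the early factors, both fell. Tcf7 was at 1709, 1866 and 1924 CPM in SOD1 and 1510, 1659 and 1713 in WT at T0. At T2 it was at 139, 65.9 and 65.2 in SOD1 and 163, 33.1 and 99.3 in WT, and at T20 at 132, 74.7 and 64.3 in SOD1 and 163, 30.9 and 130 in WT. Every T0 library lay far above every later one. The difference was -4.23 ± 0.41 at T2 (18.8-fold lower, adjusted p = 2.31e-07) and -4.08 ± 0.41 at T20 (16.9-fold lower, adjusted p = 3.55e-07). Lef1 ranged from 691 to 1051 CPM (median 933) at T0, from 69.6 to 135 (median 81.0) at T2 and from 69.0 to 132 (median 103) at T20. It fell by 3.34 ± 0.23 at T2 (adjusted p = 1.26e-08) and by 3.17 ± 0.23 at T20. The promoter of its start within the gene, the only Lef1 start with TCF/LEF letters, is printed above.

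Satb1, the chromatin organiser, ranged from 1367 to 2143 CPM (median 1830) at T0, from 52.2 to 306 (median 172) at T2 and from 37.2 to 201 (median 155) at T20. It fell by 3.39 ± 0.36 at T2 (10.5-fold lower) and fell by 3.73 ± 0.36 at T20 (13.3-fold lower). Bcl11b ranged from 356 to 645 CPM at T0, from 93.1 to 258 at T2 and from 127 to 276 at T20, and it fell by 1.65 ± 0.26 and fell by 1.54 ± 0.26 at these times. Neither gene had a later library within its T0 range.

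Id3, the E protein inhibitor, ranged from 75.6 to 156 CPM (median 111) at T0, from 3.68 to 44.9 (median 14.4) at T2 and from 9.08 to 88.0 (median 20.6) at T20. It fell by 2.92 ± 0.50 at T2 and 1.81 ± 0.47 at T20. At T20 WT 1, at 88.0 CPM, lay within the T0 range. Tox ranged from 55.3 to 81.4 CPM at T0, from 15.3 to 56.1 at T2 and from 4.67 to 40.9 at T20, and it fell by 1.11 ± 0.31 (adjusted p = 0.00573) and 1.36 ± 0.31. The T2 call for Tox was lost without T0 SOD1 3 (adjusted p = 0.052), without T0 WT 3 (0.0772) and with no filter on low counts (0.178).

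Of the lineage choice factors, Zbtb7b fell and Runx3 rose. Zbtb7b ranged from 82.4 to 167 CPM (median 120) at T0, from 13.04 to 63.7 (median 20.4) at T2 and from 21.8 to 98.1 (median 32.8) at T20, with SOD1 2 highest at both later times. It fell by 2.02 ± 0.38 (adjusted p = 0.000195) and 1.68 ± 0.38. Runx3 was at 64.4, 95.4 and 31.2 CPM in SOD1 and 53.4, 70.8 and 85.4 in WT at T0. It ranged from 126 to 165 CPM (median 147) at T2 and from 131 to 190 (median 181) at T20, above every T0 library. It rose by 1.11 ± 0.23 (adjusted p = 0.000487) and 1.37 ± 0.23 (2.59-fold, adjusted p = 7.07e-05). Runx1 ranged from 81.9 to 200 CPM at T0, from 36.8 to 185 at T2 and from 41.8 to 75.8 at T20. It did not pass at T2 (-0.62, adjusted p = 0.107) except without T2 WT 1 (0.0132) and with voom (0.00256), and it fell by 1.29 ± 0.33 at T20 (adjusted p = 0.00256).

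Gata3 differed most between T0 libraries, at 573, 133 and 311 CPM in SOD1 and 2425, 152 and 611 in WT. In both genotypes the library numbered 1 was highest and that numbered 2 lowest. At T2 it ranged from 93.5 to 348 CPM and at T20 from 67.1 to 160, overlapping T0. It fell by 1.94 ± 0.51 (adjusted p = 0.00326) and 2.45 ± 0.52. Without T0 WT 1 the differences were -1.0 at T2 (adjusted p = 0.0445) and -1.52 at T20 (0.00432), and both passed with each library left out.

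**Figure D4:**
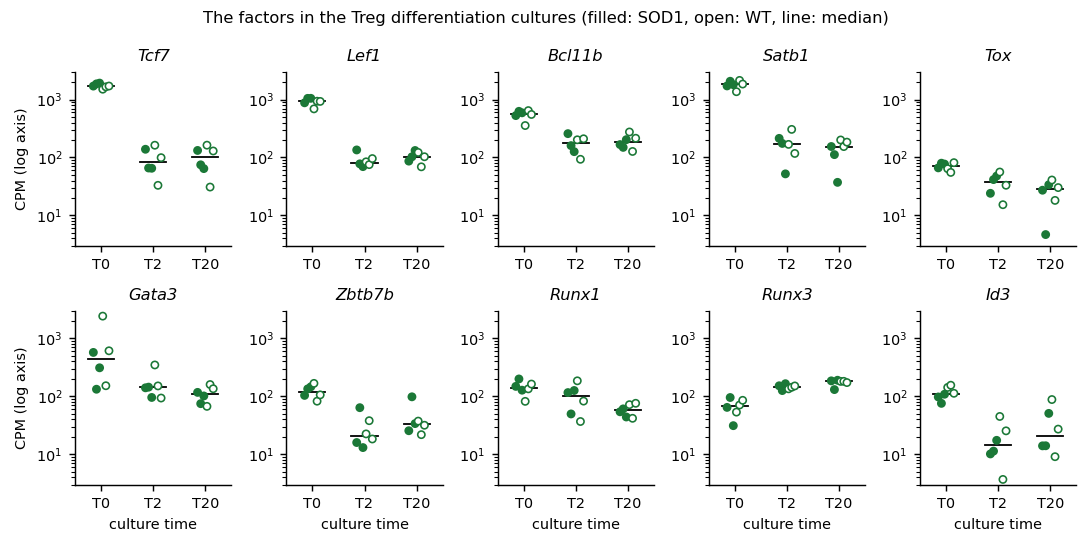
Level of each factor in every culture library, in CPM on a log axis, at T0, T2 and T20. Filled points are SOD1, open points WT, and lines are medians. Tcf7, Lef1, Satb1 and Bcl11b lie lower at T2 and T20 than in any T0 library, and Runx3 lies higher.

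Lists of related genes were read against the 58.1% of all genes that passed at T2 and the 58.2% at T20. Of 7 tested naive T cell genes all 7 fell at both times, with medians of -3.03 and -1.98. At T2, Il7r, the IL-7 receptor, fell by 4.86 ± 0.38 and Klf2 fell by 3.03 ± 0.58. Of 14 identity genes 8 fell and 2 rose at T2 (median -1.06), and the same numbers were found at T20. At T2, Themis fell by 3.58 ± 0.36 and Cd6, a T cell surface receptor, rose by 2.58 ± 0.27. Of 24 tested partner factors 4 rose and 11 fell at T2 (median -0.32), and 3 rose and 10 fell at T20 (median -0.37), shares near those over all genes. Ldb1 fell by 1.52 ± 0.18, Tle4, a corepressor that binds TCF-1 and RUNX factors, by 1.60 ± 0.22, and Zfpm1 (FOG-1), the GATA partner, rose by 2.19 ± 0.28 at T2. Of 8 lineage genes 4 rose and 3 fell at each time (medians 1.73 and 1.69). At T2, Tbx21 (T-bet) rose by 3.86 ± 0.48 and Gzmb, granzyme B, by 4.91 ± 0.78, while Cd8b1 fell by 3.77 ± 0.41. Of 12 Treg markers 11 rose and 1 fell at each time, and their sum was 159 to 626 CPM at T0, 2535 to 5538 at T2 and 2481 to 4646 at T20. Double-positive markers summed to 164 to 1249 CPM at T0, 8.69 to 191 at T2 and 33.8 to 89.7 at T20. NK cell markers summed to 0 to 39.7 CPM at T0, 113 to 352 at T2 and 234 to 386 at T20, and both that could be tested rose. Fibroblast markers summed to 62.4 to 150 CPM at T0, 0 to 47.8 at T2 and 0 to 13.3 at T20, and erythroid markers to 9.80 to 27.7, 0 to 1.95 and 0 to 1.29. B cell markers were at most 39.3 CPM and epithelial ones at most 22.5 in any culture, and myeloid markers at most 24.5 at T0 and T2 and 84.1 at T20. Their part in the culture differences was not tested. Whether the T0 libraries held other cells than the later ones was not tested, so these values compare libraries as labelled. Of the 18 libraries, 4 had under 300000 counts (T2 SOD1 3, T2 WT 1, T20 SOD1 2 and T20 SOD1 3), and without them the T20 call for Runx1 was lost (adjusted p = 0.0551).

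The last comparison, SOD1 against WT, addresses whether the transgene goes with a change of these factors. No factor passed in any of the 9 comparisons (edgeR, and limma for whole thymus), and DESeq2 called none where counts allowed it. With edgeR, 3 values had an unadjusted p under 0.05. They were 1 of 9 tested factors in CD4 at day 120, 1 of 9 in the lymph node and 1 of 10 at T0. Over all genes, 776 of 12479, 261 of 5226 and 629 of 11787 had an unadjusted p under 0.05 in these comparisons. The share of all genes that passed was 0.0135% in Treg at day 30 and the same at day 120, 0.00801% in CD4 at each day, 0.0679% at T0, 0.0933% at T2 and at T20, 0.0574% in the lymph node and 0.0831% in whole thymus. In Treg, differences ranged from -0.11 to 0.32 at day 30 and from -0.94 to 0.36 at day 120, with SE from 0.13 to 0.88, the widest being those of Zbtb7b. In CD4 they ranged from -0.28 to 0.15 at day 30 and from -0.62 to 1.01 at day 120, with SE from 0.31 to 0.56. An adjusted p that misses the threshold does not show that the genotypes were alike, and SE of this size leave room for sizeable differences. The tests of whether the genotype difference changed with age or culture time called no factor, with no unadjusted p under 0.05.

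Of those 3 values, 2 were for Runx1 and 1 for Gata3 at T0. In CD4 at day 120 it was at 184, 183 and 159 CPM in SOD1 and 132, 69.2 and 101 in WT, with no overlap, as held for 6.62% of genes there. The difference of 0.77 ± 0.34 did not pass (adjusted p = 0.789). In the inguinal lymph node it was at 144, 300.0 and 168 CPM in SOD1 and 98.9, 97.8 and 95.8 in WT, again with no overlap, as held for 10.3% of genes. That difference of 1.04 ± 0.38 did not pass either (adjusted p = 0.968), and SOD1 2 and WT 2 are the lymph node libraries with under 300000 counts. Raw counts of Runx1 in the lymph node libraries ranged from 6 to 86, and 3 counts would be 48.9 CPM in WT 2. In Treg, Runx1 ranged over 143 to 160 CPM in SOD1 and 87.0 to 179 in WT at day 120, and WT spanned SOD1.

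At T0, Gata3 was lower in SOD1 by 1.64 ± 0.70 on the log2 scale and did not pass (adjusted p = 0.891), with the levels given above. Id3 at T0 was at 97.5, 75.6 and 109 CPM in SOD1 and 142, 156 and 113 in WT, with no overlap, as held for 13% of genes, and -0.54 on the log2 scale did not pass. Tox in CD4 at day 120 was at 90.7, 132 and 196 CPM in SOD1 and 44.1, 43.7 and 118 in WT (1.01 ± 0.48), and these overlapped.

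In whole thymus, tested on log2(TPM + 1) with limma, differences were small, from -0.23 to 0.00 with SE from 0.10 to 0.34. Tcf7 was at 1699, 2063 and 1637 TPM in SOD1 and 2248, 1914 and 2170 in WT, overlapping, with -0.23 ± 0.12 (adjusted p = 0.999). SOD1 3 had the lowest value of all 6 libraries for Tcf7, Lef1, Bcl11b, Runx3, Runx1 (38.7 TPM), Gata3 (33.2) and Zbtb7b (23.7), and the highest for Id3 (185). In the lymph node, Tcf7 ranged from 276 to 619 CPM and led per kb. Differences there ranged from -0.22 to 1.04 over 9 tested factors, and Gata3, at 12 to 40.2 CPM, did not reach the filter.

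**Figure D5:**
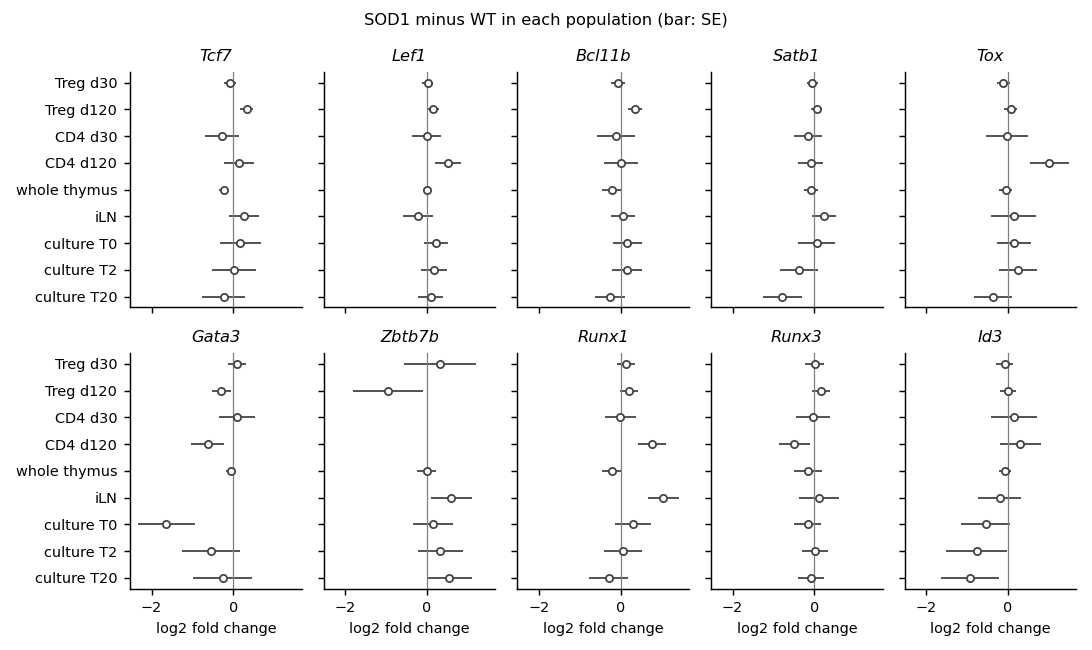
Log2 fold change of SOD1 over WT (dot) with its SE (bar) for each factor in Treg, CD4, whole thymus, lymph node (iLN) and cultures. All dots are open since none had an adjusted p under 0.05, and Runx1 in the lymph node and Gata3 at T0 lie farthest from 0. Gata3 in the lymph node and Zbtb7b in CD4 were not tested.

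Thymic epithelial sorts gave a background for the factors outside T cells. Tcf7 was at 427 to 720 CPM in cortical sorts at day 30 and 32.8 to 147 at day 120, and Satb1 at 242 to 411 and 6.96 to 84.3. The 14 T cell identity genes moved with them, summing to 1060 to 1649 CPM at day 30 and 43.7 to 358 at day 120 in the same sorts, and their part was not tested. Id3 went the other way, at 70.4 to 241 CPM at day 30 and 211 to 470 at day 120 in cortical sorts, and at 260 to 336 in medullary sorts at day 120. In medullary sorts at day 30 it was at 57.6 to 105 CPM in 5 libraries, and the sixth, SOD1 1, had only 15135 counts in all and 1 count of Id3. The other epithelial libraries had at least 1269529 counts.

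The genes whose pattern over the 23 Treg and CD4 libraries was most like each factor were found by the root mean square (RMS) difference of centred log2 CPM, among 5860 well expressed genes. For Tcf7, whose SD over these libraries was 0.50, they were Dpf2 (RMS difference 0.18) and Eif4h (0.19), and for Bcl11b (SD 0.73) Tnpo2 (0.26) and Impdh1 (0.29). For Lef1 (SD 0.43) they were Dnajc9 and Sept7 (both 0.25), and for Runx1 (SD 0.56) Nr3c1, the glucocorticoid receptor (0.30), and Opa3 (0.42). For Runx3 (SD 0.60) they were Sesn3 (0.33) and Irs2 (0.34), for Gata3 (SD 0.66) Map2k3 (0.38) and Dcaf15 (0.39), and for Tox (SD 0.62) Slain2 (0.34) and Elmo1 (0.35). Id3 (SD 0.55) was nearest to Cr1l (0.28) and Dnajb11 (0.29). Satb1 varied so little (SD 0.25) that its nearest genes, Ulk4 (0.20) and Srsf2 (0.21), were hardly nearer than a flat line. Zbtb7b was too low to be matched. The libraries share depth and scaling, so these distances are a description.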

How the data were processed

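RNA was prepared with a low-input SMART-seq kit, per the labels' protocols. The authors deposited whole-number counts per gene for sorted cells, cultures and lymph node, and TPM values for whole thymus. Build mm10 and DESeq2 stand in the submitters' processing notes, and neither an aligner nor a counter is named there or in the labels. Counts were tested with edgeR 4.0.16 in R 4.3.3 (TMM scaling, filterByExpr by group, quasi-likelihood test, Benjamini-Hochberg over all genes tested, threshold 0.05), in 1 fit each for Treg with CD4, Treg, CD4, cultures and lymph node. Whole thymus was tested on log2(TPM + 1) with limma 3.58.1, leaving out genes whose mean was under 1 TPM. CPM uses TMM-scaled library sizes. The scripts were tested on simulated data. No libraries held identical values. Alternatives were DESeq2 1.42.0, voom, other scaling, filters and dispersions, a replicate block and each library left out. Same-numbered Treg and CD4 libraries deviated together in all 5 pairs at day 30 (correlations of 0.275 to 0.364) and, over 0.1, in 5 of 6 at day 120 (0.095 to 0.206). The labels do not say what the numbers share, so the block value stands beside each Treg and CD4 result whose call it changes. All 10 factors were examined in every comparison, but the text does not print a value for each of them in each. It gives differences for up to 4 genes of the smallest p from each other list. It also names the 2 genes nearest in pattern among those with a mean of at least 5 log2 CPM. The factors and lists were chosen with earlier results of these data known. Epithelial sorts entered no test. Single genes withheld from the text are not reported here.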

Additional observations from a re-analysis of the deposited data

Results flagged for a closer look

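Runx1 was the 1 factor whose Treg minus CD4 difference changed between the days by a test of that change itself (-1.15 ± 0.28 on the log2 scale, edgeR adjusted p = 0.0489). With the replicate number as a block the adjusted p was 0.142, and 0 factors passed. At day 30, all Treg libraries (191, 289 and 258 CPM in SOD1 and 233, 225 and 212 in WT) lay above all CD4 libraries (96.9, 121 and 74.2 in SOD1 and 109 and 91.6 in WT). At day 120, Treg was at 143, 156 and 160 CPM in SOD1 and 127, 179 and 87.0 in WT, and CD4 at 184, 183 and 159 in SOD1 and 132, 69.2 and 101 in WT. The call stayed only without CD4 d30 SOD1 2, CD4 d120 SOD1 3, any 1 of the 3 CD4 d120 WT libraries or Treg d120 WT 2, among the 23 fits with 1 library left out. No group held enough libraries to look for single libraries far from the rest, since all 26 groups held 2 or 3.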

How the results depend on the processing

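Over all comparisons, 3407 values of single factors were computed under alternative settings. None of the called values changed direction, 68 lost and 26 gained a call, and 3313 stayed on their side of the threshold. Among the 3313, 240 values not called in either fit changed sign. For SOD1 against WT these were 24 of 108 values in CD4 at day 30 and 28 of 140 at T2, for example. Treg against CD4 at day 30 called 4 factors, and 8 with voom, 2 with no filter on low counts and 2 with the replicate block. At day 120 it called 3, and 5 with DESeq2, 2 with no filter and 2 with the replicate block. The change between the days called 1 factor, and 0 with no filter or with the replicate block. CD4 with age called 1 factor, and 3 with voom and 2 with the replicate block. With 1 library left out, the calls ranged from 1 to 3 for Treg against CD4 at day 30, from 2 to 4 at day 120, from 0 to 1 for their change, from 5 to 6 for Treg with age, from 0 to 2 for CD4 with age, from 8 to 10 at T2 and from 10 to 10 at T20, and they were 0 in all genotype comparisons and for T20 against T2.

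Labels share replicate numbers. Same-numbered Treg and CD4 libraries deviated together at a correlation over 0.1 in 10 of 11 pairs (0.095 to 0.364), culture times in 7 of 18, and SOD1 with WT in 1 of 6 for Treg. With the replicate block the day 30 calls for Gata3 (adjusted p = 0.144) and Runx3 (0.0539), the day 120 call for Lef1 (0.0529) and the Runx1 change (0.142) were lost, and Tox in CD4 with age was gained (0.0476).

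Counts over all genes moved more. Treg against CD4 at day 30 called 735 genes, and 1277 with DESeq2, 3781 with voom and 1443 with the edgeR 4 default dispersion. The change between days called 162, and 748 with DESeq2, 473 with voom, 487 with no filter and 23 with the block. Of the 162, 78.4% were higher, against 65.6% of 128 with median-of-ratios scaling. CD4 with age called 1321, and 2557 with DESeq2, 2788 with voom, 2425 with the edgeR 4 default and 2096 with no filter. The genotype comparisons within single groups called 1 to 12 genes. With DESeq2 those on counts called up to 48 (T2), and with no filter 33 to 222, and T20 against T2 called 43 genes with no filter. With 1 library left out, the counts ranged from 330 to 587 for Treg against CD4 at day 30, from 17 to 575 for the change between days and from 156 to 1898 for CD4 with age. Depth limits the lymph node, at 63887 to 894958 counts, where Gata3 did not reach the filter. Leaving out libraries under 300000 counts was not run for sorted T cells, which hold none, and for T20 it was chosen after seeing the data.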
